A study of Mus musculus with 768 samples.

Results

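The 10 cytokine and receptor genes of the fibroblasts of mouse mammary tumors described here are 10 of the 24490 endogenous genes in the count table. They were taken by symbol and comprise the IL-6 family ligands *Il6*, *Il11* and *Lif* with their shared receptor chain *Il6st*, the alarmin *Il33* and its receptor *Il1rl1*, the CSF1 receptor ligands *Csf1* and *Il34*, the epithelial-type alarmin *Tslp*, and *Il10*. All 10 had a read in at least 1 of the wells used, as did 17235 genes in all. The cells came from 2 mammary tumors of mice of strain FVB/N-Tg(MMTVPyVT)634Mul/J, 14 weeks old, in which the MMTV promoter drives the polyoma middle T oncogene in the mammary epithelium. Single living cells without surface EpCAM, CD45, CD31 or NG2 were sorted, 1 per well, and sequenced by Smart-seq2, which reads full-length transcripts and uses no molecular identifiers. No treatment or control group was part of the design, and the comparisons are between kinds of cell. Each tumor filled 1 plate, so that plate and tumor cannot be told apart, and the 2 tumors are the replicates of every comparison. Whether they came from separate mice is not given in the sources used here.

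Cytokines of the IL-6 family bind a private receptor chain and then the shared chain gp130, encoded by *Il6st*, which signals through JAK kinases and STAT3. *Csf1* and *Il34* encode the ligands of the CSF1 receptor, on which macrophages depend for survival. IL-33 and TSLP are alarmins that act mainly on lymphoid and mast cells, IL-33 through ST2, the product of *Il1rl1*, and IL-10 restrains inflammatory responses. Fibroblasts are known sources of several of these factors in tumors, and IL-6 and LIF are named among the products of inflammatory fibroblasts.

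Of 768 wells, 727 held at least 10000 endogenous reads, with 10281 to 838772 reads (median 219264) in tumor 1 and 10476 to 1190516 (median 198180) in tumor 2. A well was called vascular, matrix or Trf-high when *Rgs5*, *Dcn* or *Trf*, respectively, led the other 2 genes by at least 1 in log2(RPKM + 1) and reached 5. There were 509 vascular wells, which made up 71.3% and 68.6% of the wells of tumors 1 and 2, 85 and 78 matrix wells, 7 and 20 Trf-high wells, and 15 and 13 wells in no class. The 10 vascular markers summed to 24947 and 25275 CPM, reads per 1000000 reads summed over the wells of a class, in vascular wells of the 2 tumors, against 1327 and 1159 in matrix and 240.7 and 288.6 in Trf-high wells. Of the 9 immune markers, 2 to 7 had a read in a class and tumor, and their summed level was 2.91 to 32.3 CPM. Endothelial markers summed to 366.5 and 488.5 CPM in vascular wells and to 36.9 and 49.7 CPM in matrix wells, and mast and innate lymphoid markers to 362.4 and 256.1 CPM in Trf-high wells against 2.31 to 14.1 CPM in the other 2 classes. The endothelial sums in vascular wells came from 4 and 5 of the 8 listed genes in tumors 1 and 2. The mast and innate lymphoid sums in Trf-high wells came from 2 of the 6 listed genes in each tumor. The part of these markers in the results was not tested. *Ptprc*, which encodes CD45, had reads in 1 classed well. The epithelial markers summed to 1988 and 330.7 CPM in Trf-high wells and to 9.04 to 40.4 CPM in the other classes. *Epcam* had a read in 3 of 7 and 5 of 20 Trf-high wells. Their part in the Trf-high values was not tested other than by leaving out wells with a read of *Epcam*, *Pecam1* or *Ptprc*. No doublet caller was run, 12 classed wells had a lead under 2, and 0 wells had identical counts.

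By mean RPKM, a level per transcript length, *Il34* led the 10 genes in vascular wells and *Il33* in matrix and Trf-high wells. In vascular wells *Il34* came first, with a mean RPKM of 262.8 in tumor 1 and 237.8 in tumor 2, and *Il6st* followed with 130.1 and 112.1. In matrix wells *Il33* came first with 189.4 and 181.3, and *Il34* second with 184.7 and 109.3, so that the gap between the genes was smaller than that between the tumors for *Il34*. Trf-high wells also had *Il33* first, with 17.5 and 192.5, a gap between the tumors of more than 10 times. The tumor 1 value came from 1 of 7 wells, while *Csf1*, at 13.7, was read in 4 of 7. *Csf1*, *Il6st* and *Il34* were the only other members with a read in Trf-high wells of both tumors. The plot of single wells shows the scatter between wells, with means of log2(RPKM + 1), and on that scale the order changed. In matrix wells *Il34* then led, with 6.19 and 4.78 against 4.82 and 4.18 for *Il33*. In Trf-high wells of tumor 1, *Csf1* (2.53) and *Il6st* (1.49) then stood above *Il33* (0.99).

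**Figure D1:**
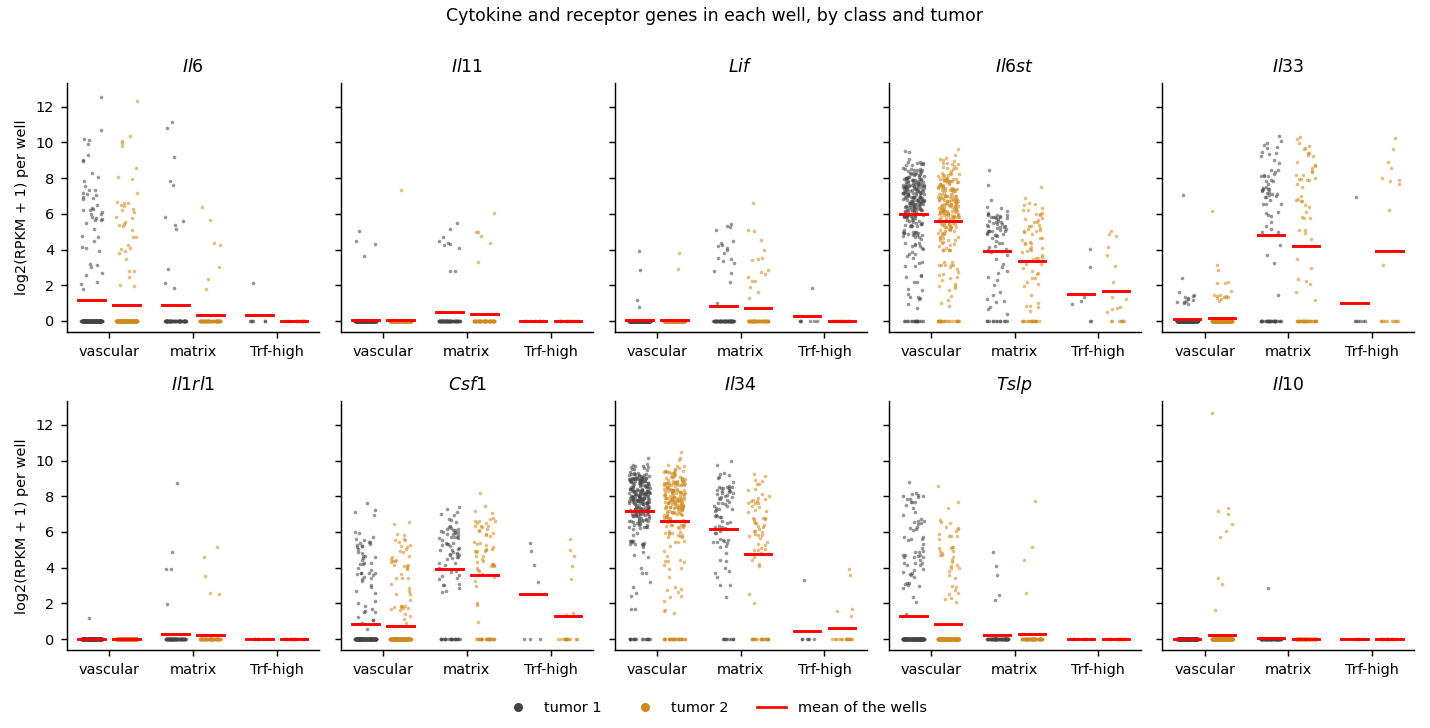
Level of each gene in every well, as log2(RPKM + 1) on the y axis, by class and tumor on the x axis; each point is 1 well and the red line is the mean of the wells. *Il34* and *Il6st* were read in most vascular and most matrix wells, and *Il33* and *Csf1* in most matrix but a minority of vascular wells. *Il6* was read in a minority of wells at widely ranging levels.

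Of the CSF1 receptor ligands, *Il34* was read widely in vascular and matrix wells, and *Csf1* in a larger share of matrix wells than of the other classes. *Il34* had a read in 93.6% of vascular wells of tumor 1 (exact 95% binomial interval 89.96 to 96.2) and 89.3% of tumor 2 (84.7 to 92.9), in 89.4% and 73.1% of matrix wells, and in 1 of 7 and 5 of 20 Trf-high wells. Such intervals cover counting error only, since reads without molecular identifiers are not independent molecules. The summed reads gave 554 and 487 CPM in vascular wells, 365.5 and 242.5 in matrix wells, and 1.10 and 1.64 in Trf-high wells. Vascular and matrix levels were close, and the Trf-high wells of both tumors lay far below either. By edgeR (quasi-likelihood test, p adjusted by Benjamini-Hochberg over all genes), *Il34* was 397-fold lower in Trf-high than in vascular wells (log2 -8.63, SE 0.43, adjusted p = 0.00093) and 284.2-fold lower than in matrix wells (log2 -8.15, SE 0.42, adjusted p = 0.0016). Between matrix and vascular wells the log2 difference was -0.48 (SE 0.28, adjusted p = 0.51), which became 0.19 when the ERCC spike-in totals were used as library sizes. The Trf-high wells held 8 reads of *Il34* in all, 0.199% and 0.337% of the vascular CPM. For comparison, the vascular marker *Abcc9*, a potassium channel subunit that took no part in the class rule, stood in Trf-high wells at 0.0840% and 0.150% of its vascular CPM, and whether the *Il34* reads there came from the cell in the well was not tested.

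*Csf1* was highest in matrix wells and lowest in vascular wells. It had a read in 76.5% and 70.5% of matrix wells, in 21.4% and 20.6% of vascular wells and in 4 of 7 and 7 of 20 Trf-high wells. Its level was 130.4 and 150.4 CPM in matrix wells, 20.2 and 16.9 CPM in vascular wells, and 55.1 and 29.3 CPM in Trf-high wells. The matrix wells of both tumors stood above all other libraries, and no class overlapped another. *Csf1* was 9.25-fold higher in matrix than in vascular wells (log2 3.21, SE 0.40, adjusted p = 0.0141) and 4.50-fold lower in Trf-high than in matrix wells (log2 -2.17, SE 0.38, adjusted p = 0.0254), while Trf-high against vascular wells did not pass (log2 1.04, SE 0.37, adjusted p = 0.138). Without wells with a read of *Epcam*, *Pecam1* or *Ptprc* the adjusted p of the first 2 differences was 0.0581 and 0.129. Per transcript length, *Il34* exceeded *Csf1* by 42.8 and 56.97 times in vascular wells and by 5.10 and 2.98 times in matrix wells of tumors 1 and 2, and *Csf1* exceeded *Il34* by 10.8 and 4.18 times in Trf-high wells. In matrix wells the 2 ligands were often read together, in 62 of 65 *Csf1* wells of tumor 1 and 46 of 55 of tumor 2. *Csf1r*, the receptor, had reads in 3 vascular wells, in 11 and 6 matrix wells of the tumors and in 0 of the Trf-high wells. *Csf2* and *Csf3*, other colony-stimulating factors, had no read in any class. *Sdc1*, which encodes the syndecan that binds IL-34, was lower in Trf-high than in vascular wells (log2 -1.56, adjusted p = 0.0156) and in matrix wells (log2 -2.68, adjusted p = 0.0044).

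**Figure D2:**
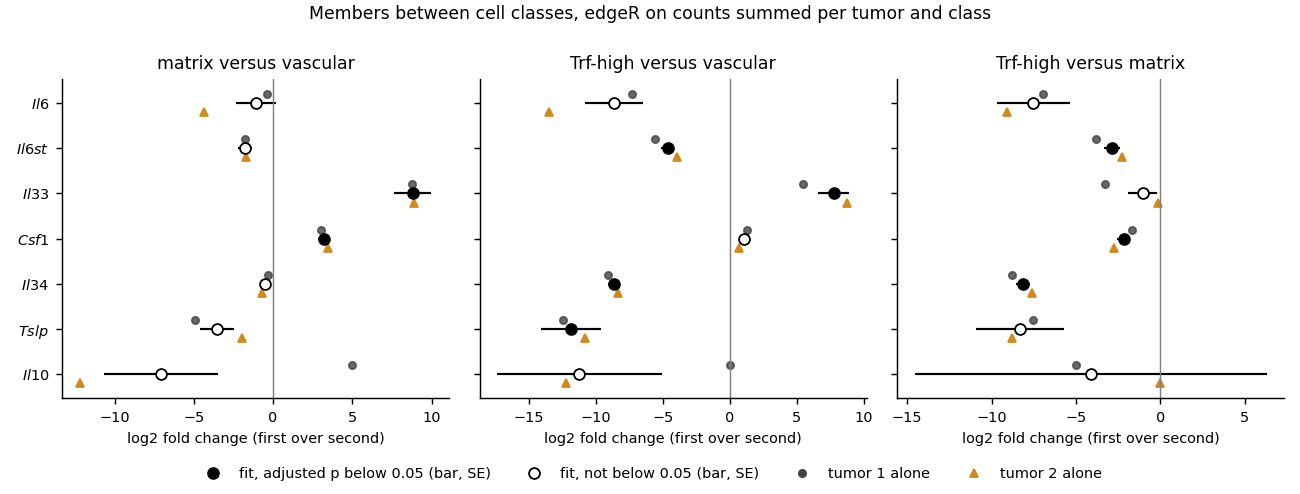
Log2 fold change of the 7 members that could be tested, for 3 comparisons; large points are the edgeR fits with SE bars, filled where the adjusted p is below 0.05, and small points are the values of each tumor alone. *Il33* and *Csf1* were higher in matrix than in vascular wells in both tumors, and the points of *Tslp* and *Il10* in Trf-high wells, where no read was found, are set by the prior count of the fit and are no estimate of a size. The same holds for the tumor 2 points of *Il6* in Trf-high wells, which had no read there. It also holds for the single-tumor points of *Il10* between matrix and vascular wells, where a class had no read.

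Across all genes, 669 of 11715 tested were called between matrix and vascular wells at an adjusted p below 0.05, which is 5.71%, and 3.02% with the tumor as a block. Of the 7 members tested there, 2 were called, *Il33* and *Csf1*, both higher in matrix wells, where 3.71% of all genes were higher and 2.00% lower. Between Trf-high and vascular wells 12.9% of genes were called (8.09% with the block) and 4 of 7 members, *Il33* higher (5.06% of all genes) and *Il34*, *Il6st* and *Tslp* lower (7.84% of all genes). Between Trf-high and matrix wells 11.4% of genes were called (6.82% with the block) and 3 of 7 members, *Il34*, *Il6st* and *Csf1*, all lower in Trf-high wells, as were 8.05% of all genes, while 3.30% were higher. *Lif*, *Il11* and *Il1rl1* had a mean RPKM below 1 and were tested only without that filter or with edgeR's own filter. The classes were cut from 3 genes of the same cells, and p-values measure the spread between 2 tumors.

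*Il33* was read in most matrix wells and few vascular wells. It had a read in 65.9% of those of tumor 1 (interval 54.8 to 75.8) and 60.3% of tumor 2 (48.5 to 71.2), against 5.26% and 6.996% of vascular wells. After thinning every well to 50000 reads these shares were 68.4% and 58.1% in matrix and 1.95% and 1.75% in vascular wells. Its level was 551 and 524 CPM in matrix wells and 1.59 and 1.36 CPM in vascular wells, so the tumors lay close together and the classes far apart. The matrix wells were 445-fold higher (log2 8.80, SE 1.196, adjusted p = 0.0184). Left without wells with a read of *Epcam*, *Pecam1* or *Ptprc*, the log2 difference was 9.29 with an adjusted p of 0.163. The few vascular reads, 88 and 66, amounted to 0.288% and 0.259% of the matrix CPM. In each tumor 1 well held most of them, 75 and 46 reads, and without it the vascular level was 0.235 and 0.413 CPM. *Lum* and *Pdgfra*, matrix markers that the rule did not use, stood in vascular wells at 0.563% and 2.07%, and 0.552% and 0.154%, of their matrix CPM.

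Trf-high wells differed between the tumors in *Il33*. In tumor 1, 1 of 7 wells had reads of it (76.01 CPM over the class), and in tumor 2, 10 of 20 wells (619.6 CPM), with an RPKM of 7.86 to 1212 and a median of 246.3 in those wells. *Il33* was higher in Trf-high than in vascular wells in both tumors (log2 7.74, SE 1.15, adjusted p = 0.0136), though limma on the mean log2(RPKM + 1) gave an adjusted p of 0.108 and leaving out wells with *Epcam*, *Pecam1* or *Ptprc* gave 0.114. Against matrix wells the difference did not pass (log2 -1.05, SE 0.86, adjusted p = 0.486). All 10 wells of tumor 2 with *Il33* also had reads of *Mia*, *Scrg1* and *Sox10*, the last a transcription factor of neural crest and mammary stem-like cells, whereas of the 10 wells without *Il33* 8, 6 and 5 did. In tumor 1 the 1 well with *Il33* had *Mia*, *Scrg1* and *Sox10*, and of the 6 wells without *Il33* 5 had *Mia*, 4 had *Scrg1* and 6 had *Sox10*. With 1 such well, tumor 1 cannot show whether the split of tumor 2 recurs. In tumor 2 depth moved with this split, since the wells with *Il33* had a median of 259893 reads and those without 59393. The level of immediate early genes moved with it as well (a median of 6.25 against 1.13 in mean log2(RPKM + 1)), and the part of either was not tested. At 50000 reads per well, 62.5% of the 16 wells deep enough had an *Il33* read. *Il33* stood in Trf-high wells at 13.8% and 118.3% of its matrix CPM, *Lum* at 0.0603% and 0.0559% and *Pdgfra* at 5.24% and 0.447% of theirs. The 10 matrix markers summed to 3493 and 2448 CPM in Trf-high wells, against 19958 and 18727 CPM in matrix wells, and their part in the *Il33* values was not tested.

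*Il1rl1*, the receptor for IL-33, was rare and read almost only in matrix wells, in 5 of 85 and 5 of 78. Of the 549 reads of tumor 1 (23.97 CPM) 87.1% lay in 1 well, and tumor 2 had 7.03 CPM. Vascular wells held 1 read in all, and 0 of 27 Trf-high wells had one. The summed matrix level was 1720 times the vascular level, with a counting interval of 307.7 to 68050 that rests on that 1 read. Without a filter on genes *Il1rl1* was higher in matrix than in vascular wells (adjusted p = 0.0307, where 4.50% of genes were called, 2.96% in this direction), and with edgeR's own filter the adjusted p was 0.0525. Ligand and receptor met in few wells, 1 and 3 of the matrix wells of the tumors. The well with most *Il1rl1* reads, 478, had a *Dcn* level of 8.77 in log2(RPKM + 1) and no read of the 9 immune or the 6 mast and innate lymphoid markers. In the IL-1 family list of 15 genes, 10 were tested, and 1 was higher in matrix than in vascular wells, *Il33* itself, with a list median of -0.13 against -0.04 over all genes. *Il1r1*, the signaling IL-1 receptor, was read in 92.5% and 93.4% of vascular wells and 90.6% and 87.2% of matrix wells, although *Il1a* had no read and *Il1b* had reads in 1 matrix well. *Il1r2*, a decoy receptor, had no read in Trf-high wells and was called lower there than in vascular wells (adjusted p = 0.0243, and 0.0724 with the tumor as a block).

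**Figure D3:**
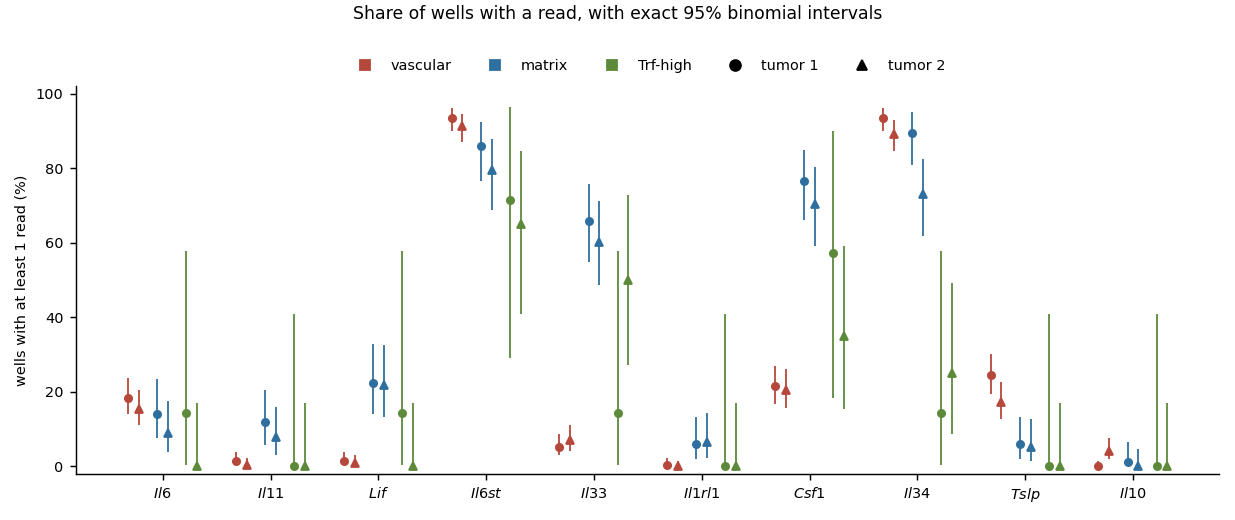
Percent of wells with at least 1 read of each gene on the y axis, by gene on the x axis, class (color) and tumor (shape), with exact 95% binomial intervals as bars. *Il33*, *Csf1* and *Lif* were read in more matrix than vascular wells in both tumors, and the intervals of the Trf-high wells are wide because there are 7 and 20 of them.

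Among the IL-6 family ligands, *Il6* was read in a minority of wells of both main classes and was very unevenly spread. It had a read in 18.4% and 15.2% of vascular wells and in 14.1% and 8.97% of matrix wells of tumors 1 and 2, in 1 of 7 and 0 of 20 Trf-high wells, and in none of the 28 unclassed wells. The summed level was 81.4 and 58.9 CPM in vascular wells and 51.4 and 2.34 CPM in matrix wells, so that matrix wells were close to vascular wells in tumor 1 and far below them in tumor 2. No difference between matrix and vascular wells passed (log2 -1.07, SE 1.28, adjusted p = 0.841). Trf-high wells held 1 read, and their difference from vascular wells had an adjusted p of 0.0579, with a range of 8.02e-05 to 0.106 over 18 settings. Of 8594 *Il6* reads in all, 2128 lay in 1 vascular well of tumor 1 and 1323 in 1 vascular well of tumor 2, together 40.2%, and 10 wells held 70.4%. Without the well with most reads, the vascular level was 43.2 and 31.8 CPM and that of the matrix wells of tumor 1 was 24.2 CPM. Both wells had no read of the 9 immune markers and *Rgs5* at 9.10 and 13.45 in log2(RPKM + 1). Of the 8 endothelial markers each well had reads of 1, a lone read in tumor 1 and many more in tumor 2.

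Vascular wells with *Il6* stood higher in immediate early genes, which respond to stimulation and to cell handling, and so did those with *Csf1* (5.19 against 4.67 in tumor 1 and 4.95 against 4.38 in tumor 2, by the measure that follows). Vascular wells with an *Il6* read had a median over wells of the mean log2(RPKM + 1) of 15 such genes of 5.71 in tumor 1 and 5.74 in tumor 2, against 4.52 and 4.37 in vascular wells without one. Depth moved the same way, with medians of 243807 and 222340 reads against 197470 and 185016.5, and the part of depth or of the warm enzymatic dissociation was not tested. In matrix wells the values were 6.88 against 5.55 in tumor 1 and 5.12 against 5.06 in tumor 2. Matrix wells with and without *Csf1* were at 5.67 and 5.64 in tumor 1 and at 5.46 and 3.03 in tumor 2, and those with and without *Lif* at 5.72 and 5.66 and at 5.69 and 4.54. The genes most like *Il6* across all kept wells of a tumor, by Spearman correlation of log2(RPKM + 1), were the chemokine gene *Cxcl1* (0.27 in tumor 1 and 0.32 in tumor 2), the mRNA decay factor gene *Zfp36* (0.26 and 0.25) and the NF-kB inhibitor gene *Nfkbia* (0.30 and 0.12). These are descriptions over wells that share a plate and differ in depth.

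**Figure D4:**
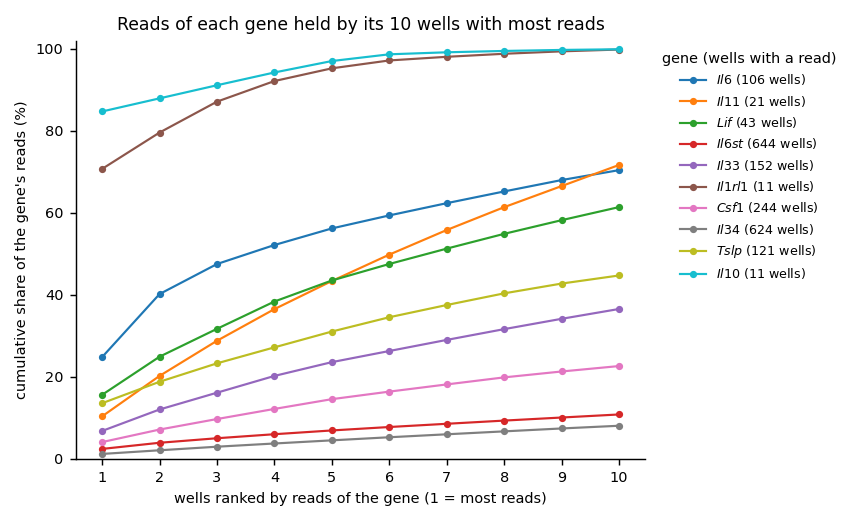
Cumulative percent of a gene's reads (y axis) held by its wells ranked by reads (x axis, 1 to 10), one line per gene, with the number of wells that had a read in the legend. The top well held 84.7% of *Il10* reads and 70.7% of *Il1rl1* reads, and 1.12% of *Il34* reads.

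Promoters are shown for the 4 members whose 250 bases before a transcript start held a searched motif, since AP-1 and NF-kB factors are known regulators of *Il6*. Sequences are from RefSeq (GRCm38.p6), 5′ to 3′ on the strand of the gene, and capitals mark the matches to AP-1 (TGANTCA) and NF-kB (GGGA, any 4 bases, CC), both searched on both strands. The windows are *Il6*, chr5:30012864-30013113, plus strand, *Lif*, chr11:4257318-4257567, plus strand, *Csf1*, chr3:107760470-107760719, minus strand, and the start of *Il11* at chr7:4778142-4778391, minus strand.
Il6: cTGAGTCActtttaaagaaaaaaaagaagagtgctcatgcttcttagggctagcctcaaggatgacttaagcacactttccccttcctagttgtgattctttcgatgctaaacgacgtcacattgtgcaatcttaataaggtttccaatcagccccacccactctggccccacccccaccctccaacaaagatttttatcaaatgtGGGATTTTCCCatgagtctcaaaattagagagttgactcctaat
Lif: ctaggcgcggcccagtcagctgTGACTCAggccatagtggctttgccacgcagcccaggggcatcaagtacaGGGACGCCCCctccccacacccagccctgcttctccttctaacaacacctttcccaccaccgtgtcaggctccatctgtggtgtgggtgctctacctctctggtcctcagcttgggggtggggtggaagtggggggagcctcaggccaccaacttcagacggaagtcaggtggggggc
Csf1: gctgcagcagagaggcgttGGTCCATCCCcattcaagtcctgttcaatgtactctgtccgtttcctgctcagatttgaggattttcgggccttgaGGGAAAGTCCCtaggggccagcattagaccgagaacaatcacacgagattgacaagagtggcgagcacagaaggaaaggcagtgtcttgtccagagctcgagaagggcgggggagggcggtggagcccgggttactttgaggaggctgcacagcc
Il11: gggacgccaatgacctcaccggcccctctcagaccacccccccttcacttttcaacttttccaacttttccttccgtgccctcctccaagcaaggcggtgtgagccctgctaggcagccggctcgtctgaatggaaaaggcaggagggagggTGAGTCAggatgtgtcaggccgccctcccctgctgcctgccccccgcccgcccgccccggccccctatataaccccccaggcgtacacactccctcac

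*Il6* held an AP-1 match at the upstream end of the window and an NF-kB match on each strand, overlapping, from 44 bases before the transcript start. *Lif* held 1 match of each motif, *Csf1* 3 NF-kB matches of which 2 overlapped, and *Il11* 1 AP-1 match at 1 of its 2 listed starts. Of 32851 promoters of this length in the table, 6.75% held the AP-1 letters and 17.6% the NF-kB letters. No searched motif, the cAMP response element TGACGTCA (1.55% of promoters) and STAT TTCNNNGAA (7.02%) included, was in the windows of *Il33*, *Il6st* or *Il1rl1*. The match of letters is a description, and 7 of the 10 members had a window in the table. The genes lie on chromosomes 5 (*Il6*, 30013114 to 30019975), 11 (*Lif*, 4257568 to 4272514), 3 (*Csf1*, 107741048 to 107760469) and 7 (*Il11*, 4772373 to 4782907) of GRCm38.p6.

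*Lif* and *Il11* were low and found mainly in matrix wells. *Lif*, whose product acts through its own receptor chain and gp130, had a read in 22.4% and 21.8% of matrix wells (intervals 14.0 to 32.7 and 13.2 to 32.6) and in 1.504% and 0.823% of vascular wells. Its level was 17.99 and 14.9 CPM in matrix wells and 0.487 and 0.226 CPM in vascular wells, and the groups did not overlap in either tumor. The summed matrix level was 45.5 times the vascular level, yet with 2 tumors and no filter on genes the test did not pass (log2 5.75, SE 1.502, adjusted p = 0.0969). *Il11* had a read in 10 of 85 and 6 of 78 matrix wells, at 3.76 and 4.35 CPM, and in 4 and 1 vascular wells, at 0.830 and 0.473 CPM (log2 2.87, SE 1.47, adjusted p = 0.479 without a filter). No *Il11* read was found in 27 Trf-high wells. Of 19 matrix wells of tumor 1 with *Lif*, 4 had *Il6* (14.1% of all matrix wells there had it) and 2 had *Il11* (11.8%), and of 17 in tumor 2, 1 had each (8.97% and 7.69% of all). *Il33* was read in 15 of those 19 and 13 of those 17 wells, against 65.9% and 60.3% of all matrix wells.

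Among other ligands of the family, *Ctf1*, the cardiotrophin-1 gene, was higher in Trf-high than in vascular wells (36.4 and 28.7 against 1.30 and 2.92 CPM, log2 3.81, adjusted p = 0.0278, and 0.0687 with the tumor as a block). *Osm* and *Il27* had no read in any class.

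*Il6st* was the most widely read member. It had a read in 93.6% and 91.4% of vascular wells, 85.9% and 79.5% of matrix wells and 5 of 7 and 13 of 20 Trf-high wells. The levels were 853 and 694 CPM in vascular wells, 198.5 and 175.5 in matrix wells and 19.3 and 48.7 in Trf-high wells, so the 3 classes did not overlap and vascular wells stood highest in both tumors. *Il6st* was 24.7-fold lower in Trf-high than in vascular wells (log2 -4.63, SE 0.49, adjusted p = 0.0053) and 7.31-fold lower than in matrix wells (log2 -2.87, SE 0.46, adjusted p = 0.0186). The lower level in matrix than in vascular wells did not pass (log2 -1.76, SE 0.43, adjusted p = 0.0892), and the adjusted p ranged from 0.0016 to 0.200 over 18 settings, of which 6 passed. The share of Trf-high wells with a read was 42.9% and 37.5% after thinning to 50000 reads. The genes most like *Il6st* across wells were *Rgs5* (Spearman 0.55 and 0.47), which itself defined the vascular class and so restates the class difference, *Gm13889* (0.54 and 0.48) and the vascular receptor gene *Notch3* (0.49 and 0.52).

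Of the private chains that pair with gp130 and were tested, only *Il11ra1* differed between matrix and vascular wells, and all were lower in Trf-high than in matrix wells. Between matrix and vascular wells *Lifr*, *Osmr* and *Il27ra* did not pass (edgeR adjusted p of 0.478, 0.650 and 0.683). *Il6ra*, the IL-6 receptor chain, had a read in 2.26% of vascular wells of tumor 1 and 2.06% of tumor 2 beside *Il6st*, in 3.53% and 2.56% of matrix wells, and in 3 of 7 and 4 of 20 Trf-high wells. *Osmr*, the oncostatin M receptor chain, was read beside *Il6st* in 77.1% and 78.6% of vascular and 77.6% and 70.5% of matrix wells. *Il11ra1*, the IL-11 receptor chain, was higher in matrix than in vascular wells (243.4 and 259.2 against 26 and 18.3 CPM, log2 3.79, SE 0.28, adjusted p = 0.0042) and was read beside *Il6st* in 83.5% and 74.4% of matrix wells, against 37.97% and 32.1% of vascular wells. Of 7 receptor genes listed, 5 were tested, and all 5 were lower in Trf-high than in matrix wells, *Il6st*, *Il11ra1* (log2 -3.59, adjusted p = 0.0030), *Lifr* (log2 -2.59, adjusted p = 0.0419), *Osmr* (log2 -1.81, adjusted p = 0.0084) and *Il27ra*. *Il27ra* had no read in Trf-high wells, and its adjusted p of 0.0334 became 0.0797 with the tumor as a block. The list median was -2.87, against -0.12 over all genes. Against vascular wells *Il6st*, *Osmr* (log2 -2.09, adjusted p = 0.0050) and *Il27ra* (adjusted p = 0.0409, and 0.0985 with the block) were lower.

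**Figure D5:**
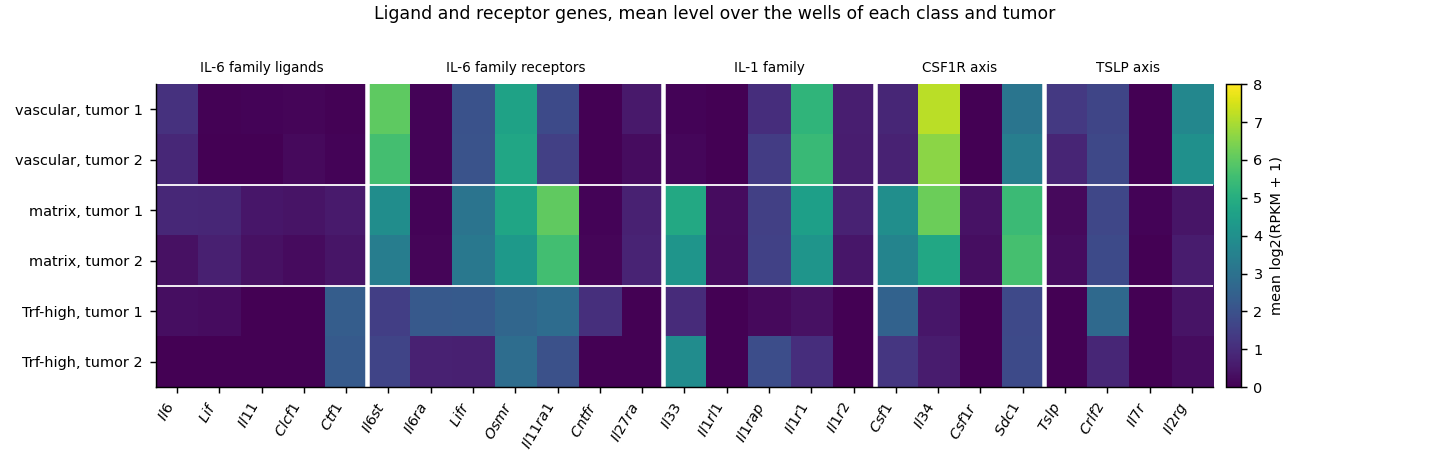
Mean log2(RPKM + 1) over the wells of each class and tumor (rows) for ligand and receptor genes (columns, grouped by family), with brighter colors for higher levels. *Il34* and *Il6st* were brightest in vascular wells, *Il11ra1* and *Il33* stood out in matrix wells, and *Il6ra*, *Csf1r* and *Il7r* were dark in vascular and matrix wells.

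Downstream of the receptors, the 12 JAK-STAT3 genes listed were all tested and 0 were called in any of the 3 comparisons by edgeR. Their medians were 0.32 between matrix and vascular wells, -0.25 between Trf-high and vascular wells and -0.64 between Trf-high and matrix wells. *Stat3* was read in 91.7% and 90.5% of vascular and 95.3% and 91.03% of matrix wells. *Socs3*, a feedback inhibitor induced by STAT3, was at 252.9 and 144.2 CPM in vascular wells, 322.02 and 167.6 in matrix wells and 0.551 and 76.9 in Trf-high wells. Of the 14 NF-kB and inflammatory fibroblast genes, 0 were called between matrix and vascular wells, and 4 were lower in Trf-high than in vascular wells, *Rela*, *Relb*, *Bcl3* and the hyaluronan synthase gene *Has2*, none of them with the tumor as a block (adjusted p of 0.0570, 0.0687, 0.0677 and 0.0754). *Bcl3* and *Has2* were also lower than in matrix wells (adjusted p of 0.0426 and 0.0269, and 0.0897 and 0.0677 with the block). Of the 15 immediate early and stress genes 0 were called in any comparison, with medians of 0.44, -0.83 and -0.97.

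*Tslp* was read mainly in vascular wells. It had a read in 24.4% of those of tumor 1 (interval 19.4 to 30.1) and 17.3% of tumor 2 (12.8 to 22.6), in 5.88% and 5.13% of matrix wells, and in 0 of 7 and 0 of 20 Trf-high wells, where the exact intervals reach 40.96% and 16.8% and a limit of 3 counts gives 42.9% and 15%. Its level was 29.5 and 9.17 CPM in vascular wells and 0.786 and 1.95 CPM in matrix wells, so the classes did not overlap and within vascular wells tumor 1 stood above tumor 2. The difference between matrix and vascular wells was -4.92 in tumor 1 alone and -1.95 in tumor 2 alone on the log2 scale, and it did not pass (log2 -3.54, SE 1.05, adjusted p = 0.176, with a range of 0.0211 to 0.365 over 18 settings). With 2081 reads in vascular wells and 0 in Trf-high wells, the latter were called lower (adjusted p = 0.0370, and 0.0974 with the tumor as a block). Nearly all *Tslp* wells of the vascular class also had *Il34*, 62 of 65 and 41 of 42, against the 93.6% and 89.3% of all vascular wells with *Il34*. The genes most like *Tslp* were the integrin gene *Itga4* (Spearman 0.24 and 0.27), *Tpm4* (0.22 and 0.23) and *Sh3bgrl* (0.17 and 0.27).

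Of its receptor chains, *Crlf2*, which binds TSLP, was read in 41.7% and 44.4% of vascular and 50.6% and 48.7% of matrix wells, whereas *Il7r*, its partner, had reads in 1 matrix well. *Il2rg*, the common cytokine receptor gamma chain known mostly from lymphocytes, was higher in vascular wells, at 214.4 and 229.2 CPM against 6.11 and 14.9 CPM in matrix wells (log2 -4.12, SE 0.49, adjusted p = 0.0133) and 1.10 and 0.821 CPM in Trf-high wells (log2 -8.03, SE 0.65, adjusted p = 0.0025), and higher in matrix than in Trf-high wells (log2 difference -3.92, adjusted p = 0.0182). *Ptprc*, a general leukocyte marker, and the T cell marker *Cd3e* were at 5 reads in 1 vascular well and at 0, respectively. The 9 immune markers as a list summed to 2.91 and 8.37 CPM in vascular wells of tumors 1 and 2. These sums came from 6 and 7 of the 9 genes, and their part in the *Il2rg* values was not tested.

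*Il10* rested on 1 well. It had a read in no vascular well of tumor 1 (the exact interval reaches 1.38% and a limit of 3 counts gives 1.13%), in 10 vascular wells or 4.12% of tumor 2, and in 1 matrix well (3 reads) of tumor 1. Of 1218 reads, 1032 lay in 1 vascular well of tumor 2 and 10 wells held 99.9%. That well had 92601 reads in all, an *Rgs5* level of 12.6 in log2(RPKM + 1), and no read of the 9 immune markers or of the 6 mast and innate lymphoid markers. No comparison passed, with adjusted p of 0.457, 0.321 and 0.843, and without that well the vascular level of tumor 2 was 3.77 CPM. *Il10ra*, the ligand-binding receptor chain, had no read in any class, and *Il10rb*, the shared chain, was read in 40.2% and 40.7% of vascular wells.

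Within the matrix class most wells with *Il33* also had *Csf1* and *Il34*. Of wells with *Il33*, 85.7% in tumor 1 and 82.98% in tumor 2 had *Csf1*, against 76.5% and 70.5% of all matrix wells, and 91.1% and 80.9% had *Il34*, against 89.4% and 73.1%. These shares were not tested, since wells of 1 tumor are not replicates and deeper wells show more genes. Across all wells the genes most like *Il33* were *Pdpn*, which encodes podoplanin (0.62 and 0.56), *Clec11a* (0.65 and 0.50) and *Hmcn1* (0.57 and 0.54). *Clec11a* (0.50 and 0.46), *Tpbg* (0.48 and 0.48) and *Pdpn* (0.45 and 0.47) were most like *Csf1*, so 2 of 3 names were shared. The correlations span wells of all classes, and *Il33* and *Csf1* were both higher in matrix than in vascular wells. The part of that class difference in the shared names was not tested. *Il34* went most with *Pdgfrb* (0.39 and 0.52), *Cygb* (0.42 and 0.47) and *Col4a2* (0.36 and 0.52).

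Of 15 other interleukin genes listed, 9 had a read and 4 were tested, and only *Il17b* was called. It was higher in Trf-high wells, at 278.7 and 250.3 CPM, than in vascular wells, at 2.80 and 2.43 CPM (log2 6.52, SE 0.33, adjusted p = 0.0010), and than in matrix wells, at 0.524 and 0.391 CPM (log2 8.72, SE 0.38, adjusted p = 0.0013), and was read in 5 of 7 and 14 of 20 Trf-high wells. It was lower in matrix than in vascular wells (log2 -2.20, adjusted p = 0.0202). Among 8 other interleukin receptors, 6 were tested, and *Il17ra*, a chain of receptors for the IL-17 family, was lower in Trf-high than in vascular wells (log2 -5.34, adjusted p = 0.0215, and 0.0509 with the tumor as a block) and in matrix wells (log2 -5.51, adjusted p = 0.0215, and 0.0520). *Il4ra*, the IL-4 receptor chain, was lower in Trf-high than in matrix wells (log2 -6.01, adjusted p = 0.0337, and 0.0745 with the block) and stood at 196.3 and 177.3 CPM in matrix wells against 10.9 and 4.30 CPM in vascular wells, a difference that did not pass (adjusted p = 0.0646, and 0.134 with the block).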

How the data were processed

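Single cells of 2 tumors were sequenced by Smart-seq2, 1 cell per well, with 92 ERCC spike-ins listed beside the 24490 genes. STAR was used by the authors for alignment (mm10), and raw counts per RefSeq gene were deposited for 768 wells. The authors also deposited RPKM values (per kilobase of gene model and per mapped library), made with rpkmforgenes. All columns were matched to wells by name, and 0 were left unused. At most 0.00718% of values were above 0 in 1 of the tables only.

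Wells under 10000 reads (41) were left out. Shares of wells have exact 95% binomial intervals, and totals per well are given in the report. Raw counts were summed per tumor and class into 6 libraries and fitted together with edgeR 4.0.16 in R 4.3.3 (TMM, quasi-likelihood, Benjamini-Hochberg over 11715 genes whose mean RPKM reached 1, threshold 0.05). The SE is the log2 fold change divided by the root of F. Without the filter 17147 genes were fitted. The script was tested on simulated counts. Both tumors gave all 3 classes, so classes are paired by tumor. Their deviations from the class means correlated at 0.134 (vascular and matrix), 0.0679 (vascular and Trf-high) and -0.0164 (matrix and Trf-high) over genes, and the fit with the tumor as a block is given where it changed a call. Alternatives used limma 3.58.1 on mean log2(RPKM + 1), DESeq2 1.42.0, other class rules, filters and scalings, thinning and the leaving out of wells. Promoters came from RefSeq (GRCm38.p6).

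The 10 genes and the gene lists were chosen with earlier results of these data known, so they are no independent evidence. From each list every gene past the threshold was named, or the 4 with the largest fold change where more passed, with up to 2 defining genes. The counts and median of the list of IL-6 family ligands, and 1 gene of it, are not reported here. The 3 genes most like a member were those with the highest mean Spearman correlation over both tumors, for the 6 members read in at least 10% of wells of each tumor. No doublet caller was run, since wells held 1 sorted cell.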

Additional observations from a re-analysis of the deposited data

Results flagged for a closer look

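*Il33* in Trf-high wells went opposite ways in the tumors when set against matrix wells: Trf-high minus matrix was -475 CPM in tumor 1, where 1 of 7 Trf-high wells had a read, and 96.005 CPM in tumor 2, where 10 of 20 had one. *Lif* did so against vascular wells, with Trf-high minus vascular at 1.17 CPM in tumor 1, from 3 reads in 1 well, and -0.23 CPM in tumor 2, where no Trf-high well had a read. Neither difference between the tumors was tested, since each tumor gives 1 library per class. The 41 wells under 10000 reads, which enter no comparison, held 36 reads of *Il33*, 7 of *Il34*, 4 of *Lif* and 17 of *Il6st*.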

How the results depend on the processing

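Of the alternative values of member fold changes, 405 counted as the same, 18 lost the threshold, 16 gained it, 7 without a test moved and 1 reversed. For values with a test, the same meant the same direction and side of the threshold. Values of 1 tumor alone carry no test. They counted as the same when within 1 SD of the 2 tumor values from the fit, whatever their sign where the fit was not called. Such a value was *Il10* between matrix and vascular wells, at log2 5.00 in tumor 1 alone against -7.09 in the fit. The reversed value was *Il34* between matrix and vascular wells, 0.19 with ERCC totals as library sizes. That scaling shifted the all-gene median between these classes to 0.63, from -0.04. Of the genes tested between matrix and vascular wells 5.71% (669) were called, against 10.3% with ERCC totals, 3.02% with the tumor as a replicate block, 14.9% by DESeq2, 9.99% and 10.3% by limma with pseudocounts of 1 and 0.1, and 0 at an adjusted p below 0.001 by edgeR, where 2057 had an unadjusted p under 0.05. For Trf-high against vascular wells 12.9% (1511) became 20.2%, 8.09%, 26.4%, 21.7%, 23.3% and 0.196% in that order. For Trf-high against matrix wells 11.4% (1330) became 6.82% with the block, 25.5% by DESeq2, 17.7% and 17.1% by limma and 0 at 0.001, where 3250 had an unadjusted p under 0.05. Members called between matrix and vascular wells went from 2 to 0 without wells with *Epcam*, *Pecam1* or *Ptprc*, to 4 by DESeq2 and by limma with either pseudocount, and to 0 at 0.001. Those between Trf-high and vascular wells went from 4 to 1 at 0.001, 5 by DESeq2 and 3 without wells with *Epcam*, *Pecam1* or *Ptprc* (*Il33* lost), and those between Trf-high and matrix wells from 3 to 5 by DESeq2 and to 0 at 0.001. The causes were not tested. With the tumor as a block, paired by tumor, *Tslp* in Trf-high against vascular wells lost its call (adjusted p = 0.0974) and no other member call changed. Leaving out either tumor leaves no residual degrees of freedom, so those values carry no test. With 7 and 20 Trf-high wells, low genes there could be missed at this depth.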
